A study of Mus musculus with 8 samples.

Results

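Acute phase proteins are the plasma proteins, most of them made by hepatocytes, whose levels shift when tissue is injured or inflamed. The set described here held 35 genes, chosen by symbol. Of these, 32 were grouped as proteins that rise in the acute phase (raised members) and 3 as proteins that fall (Ahsg, Ttr and Trf). The name raised members is a grouping only, and it includes Saa4, a constitutive form. All 35 symbols were found among the 22155 genes of the deposited count table, and 35 of 35 were among the 13999 genes with enough reads to test. The rule used the symbols alone.

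Livers came from C57BL/6 mice in which every group had drunk the Lieber-DeCarli liquid diet with 1% ethanol for 2 days and 2% for 10 days, and had then received 1 µl/g of CCl4, a liver toxin, by 1 intraperitoneal injection 2 days before the liver was taken. The labels give an age of 8 to 10 weeks, and the design text gives 8 weeks. Each of 4 groups had 2 RNA-seq libraries: Yap1 floxed homozygotes given an AAV8 virus carrying GFP (Yap control), hepatocyte-specific Yap1 knockouts made with AAV8 iCre virus (Yap1 knockout), Ctgf floxed homozygotes (Ctgf control) and Ctgf conditional knockouts. Yap1 is a transcriptional co-activator of the Hippo pathway, and Ctgf, a secreted matrix protein, is one of its known targets. The Yap1 deletion covers hepatocytes alone, the promoter and cells of the Ctgf deletion were not named in the sources used here, no group lacked ethanol or CCl4, and no Ctgf group is labelled as having received a virus.

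Interleukin-6 and its relatives act on hepatocytes through the gp130 receptor, JAK kinases and the transcription factor STAT3. Interleukin-1 and TNF act through NF-kappaB and through C/EBP factors, and genes such as those for serum amyloid A respond to both arms while fibrinogen genes respond mainly to the interleukin-6 arm. The raised proteins include opsonins, clotting factors, protease inhibitors and carriers of heme and metals, and the negative ones are carriers that the liver makes less of during the response.

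Much of the set lies in gene clusters. By the GENCODE M21 annotation of GRCm38, 21 members lay within 1 Mb of another member, in 7 clusters. The Saa genes Saa1 to Saa4 spanned 42.3 kb at chr7:46711998-46754313, the orosomucoid genes Orm1 to Orm3 spanned 21.3 kb at chr4:63344560-63365878, and the fibrinogen genes Fgg, Fga and Fgb spanned 42.1 kb at chr3:83007724-83049863. The 5 serpins lay over 686.2 kb of chromosome 12, Crp and Apcs over 197.0 kb of chromosome 1, Itih4 and Itih3 over 37.3 kb of chromosome 14, and Mt2 and Mt1 over 7.7 kb of chromosome 8.

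The sequences just upstream of 5 members are shown. Saa1, Saa2 and Orm3 differed between the mouse lines. The upstream sequence of Orm2 is much like that of Orm3, but the level of Orm2 did not follow that of Orm3. Fgb is a fibrinogen chain described below in both knockouts. The sequences are RefSeq promoters (GRCm38.p6), up to 250 bases before the transcription start, read 5′ to 3′ on the gene's strand. The Saa1 window is chr7:46742981-46743230 on the minus strand and the Saa2 window is chr7:46751583-46751789 on the plus strand, so the 2 genes point away from each other. The windows of Orm2 (chr4:63362199-63362448) and Orm3 (chr4:63355908-63356157) are on the plus strand, and that of Fgb (chr3:83049864-83050113) is on the minus strand. Capitals mark matches on either strand to the C/EBP motif TTGCNNAA (in all 5), the STAT motif TTCNNNGAA (in Fgb, the first of its 2 matches) and the metal response element TGCACNC or TGCGCNC (in Orm3, the second of its 2 matches).
Saa1: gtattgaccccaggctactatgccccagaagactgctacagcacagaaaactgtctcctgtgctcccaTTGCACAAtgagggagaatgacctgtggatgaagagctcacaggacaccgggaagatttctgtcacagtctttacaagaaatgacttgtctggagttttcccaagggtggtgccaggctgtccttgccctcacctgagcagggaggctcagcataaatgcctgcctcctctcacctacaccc
Saa2: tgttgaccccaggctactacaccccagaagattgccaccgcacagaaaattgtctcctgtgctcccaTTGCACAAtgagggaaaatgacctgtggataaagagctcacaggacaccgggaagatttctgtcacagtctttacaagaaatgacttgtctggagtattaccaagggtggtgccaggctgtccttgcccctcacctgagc
Orm2: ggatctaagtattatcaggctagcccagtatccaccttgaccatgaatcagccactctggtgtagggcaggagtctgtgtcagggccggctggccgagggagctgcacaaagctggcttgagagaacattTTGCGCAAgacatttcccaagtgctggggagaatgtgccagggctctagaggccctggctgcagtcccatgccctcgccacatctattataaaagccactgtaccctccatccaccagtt
Orm3: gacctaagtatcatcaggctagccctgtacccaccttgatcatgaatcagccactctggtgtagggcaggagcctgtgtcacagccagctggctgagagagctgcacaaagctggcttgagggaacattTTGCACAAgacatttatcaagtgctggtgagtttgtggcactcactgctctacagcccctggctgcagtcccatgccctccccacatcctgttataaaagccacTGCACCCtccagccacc
Fgb: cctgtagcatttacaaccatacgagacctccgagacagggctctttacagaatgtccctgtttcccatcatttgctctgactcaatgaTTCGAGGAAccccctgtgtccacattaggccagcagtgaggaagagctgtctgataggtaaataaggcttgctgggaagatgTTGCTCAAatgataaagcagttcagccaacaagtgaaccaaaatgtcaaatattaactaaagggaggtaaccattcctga

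RefSeq promoters were matched for 27 of the 35 members by symbol. Orm1, Serpina3m, Serpina3k, Cfb, Hp, Trf and Lbp had no entry, and Ttr was left out. The C/EBP letters stood in the windows of 16 of the 27 genes, against 9.56% of all 32851 promoters of the same length: Ahsg, C3, Cp, Fga, Fgb, Hpx, Lcn2, Mt2, Orm2, Orm3, all 4 Saa genes, Serpina1b and Steap4. The STAT letters stood in 6 (Apcs, Fga, Fgb, Hamp, Itih4 and Steap4; 7.02% of all promoters) and the NF-kappaB motif in Steap4 alone (3.9%). The metal response element stood in 5 (Ahsg, Fgg, Mt1, Mt2 and Orm3; 21.4%). Over the full 250 bases before each start, of which the 207 ahead of the annotated GENCODE exon are printed for Saa2, Saa1 and Saa2 were 94.8% identical and Orm2 and Orm3 85.9%, whereas Saa1 and Saa3 were 52.5% and Mt1 and Mt2 48.9% identical. These matches describe the letters of the windows and were not tested for binding.

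The members took 10.8% (95% Wilson interval 10.79 to 10.81) of all reads in Yap control 1, the lowest share, and 18.1% (18.08 to 18.11) in Yap1 knockout 1, the highest. These intervals cover counting error only. Levels below are read counts scaled to library size (CPM) after edgeR's TMM scaling, with paired values in the order of replicates 1 and 2, and are compared between genes only per kilobase of exon. Per kilobase, averaged over the 8 libraries, Hpx, which carries heme, was highest at 10581 CPM per kb, followed by Hp, which binds free hemoglobin, at 7195, Fga at 5353, Serpina3k at 5019, Fgg at 4618 and Ahsg, a carrier of calcium phosphate, at 4460. Saa2 and Saa1 stood at 1385 and 1319 CPM per kb. The lowest were Il1rn, the interleukin-1 receptor antagonist, at 16.9, Orm3 at 4.33 and Cfb, complement factor B, at 1.93 CPM per kb. The order among neighbours carries the spread between libraries, which the plot of levels per kilobase shows.

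**Figure D1:**
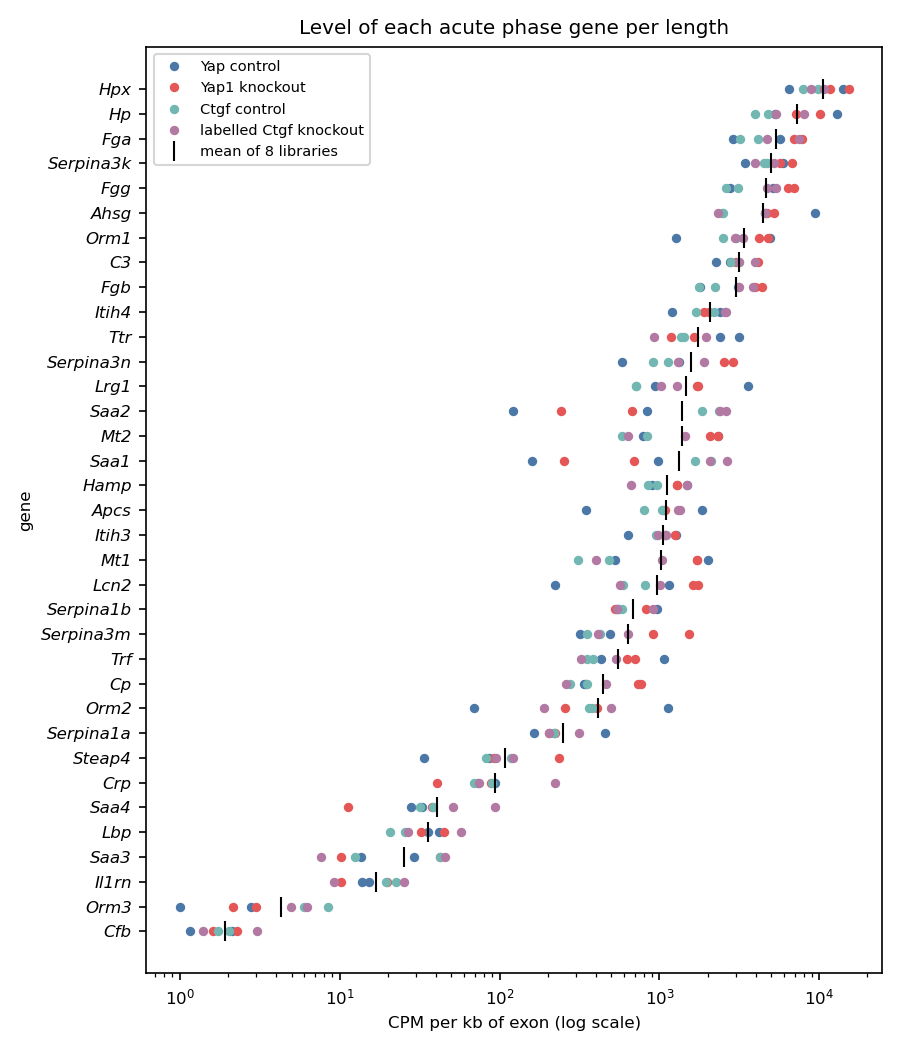
Level of each of the 35 acute phase genes in CPM per kb of exon (log axis), with 1 dot per library coloured by group and a black tick at the mean of the 8 libraries. Hpx has the highest mean, 10581 CPM per kb, and Cfb the lowest, 1.93, and the dots of most neighbouring genes overlap.

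Some of these counts share sequence with other genes. Of the 50-base windows of exon sequence, 31.5% in Saa1, 30.0% in Saa2, 20.4% in Orm1, 22.7% in Orm2, 57.6% in Serpina1a, 29.5% in Serpina1b, 19.1% in Serpina3m and 16.6% in Hamp also occurred in another gene, so reads of these genes may be split or dropped and their counts are uncertain. Only 3.59% of the windows in Orm3 and 6.9% in Serpina3n did. The exons of Cfb overlapped the readthrough gene Gm20547 over 79.5% of their length and those of Trf overlapped Gm20425 over 63.49%, on the same strand, and the Mt2 exons overlapped the antisense gene Gm45774 over 73.47%. The strand setting of the counting was not stated in the sources used here, so reads of Mt2 and of its antisense gene cannot be told apart. Gm20547 stood at 0 CPM in every library and Gm20425 at 0 to 0.055 CPM. Reads in the stretches shared with them may have been dropped, so the low Cfb level and the Trf level are uncertain.

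Total counts ran from 26904021 to 33488609 per library. Hepatocyte markers summed to 48267 to 87134 CPM with none of 10 at 0. Alb alone stood at 29931 to 69274 CPM, so the sum says little about the other markers. Cyp2e1 ran from 58.8 to 871 CPM and G6pc from 84.6 to 430 CPM across the libraries. Of the targeted genes, Yap1 was 107 and 76.1 CPM in its control libraries and 31.0 and 32.5 CPM in its knockout libraries, and between 132 and 139.5 CPM in the Ctgf line. Ctgf itself was 28.8 and 32.1 CPM in its control libraries, 8.02 CPM in the first library labelled Ctgf knockout and 49.2 CPM in the second, so that label is carried below as a label only. In the Yap line Ctgf was 96.8 and 50.1 CPM in the control libraries and 406 and 324 CPM in the Yap1 knockout libraries (log2 2.31, SE 0.72, edgeR adjusted p = 0.250), so both knockouts lay above both controls. Yap control 2 stood apart with 14724 CPM of 13 exocrine pancreas markers, against 3.13 to 8.10 CPM in the other 7 libraries. Its cholangiocyte markers summed to 1478 CPM against 266 to 654, and Spp1 alone made up 1357 CPM of that sum. Krt7, Krt19, Epcam and Cftr were also highest in Yap control 2. Sox9 was not, with 56.6 CPM there against 113 to 145 CPM in the Ctgf line. Whether the cholangiocyte marker transcripts of Yap control 2 came from bile ducts or along with the pancreatic ones was not tested. The labels do not say that the 2 libraries of a group came from separate mice, so p-values measure the spread between these libraries, which may be technical.

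Levels differed widely between the 2 libraries of some groups, as the plot of all members by library shows. Yap control 1 was the lowest of the 4 Yap line libraries for 23 of the 32 raised members (it was the lowest for 24.17% of all genes tested), and Yap control 2 was the highest for 13 (35.72% of all genes). Between the 2 Yap controls, 16 of the 32 raised members differed by more than 2-fold (14.9% of all genes did), and 26 were higher in Yap control 2. The widest gaps between these 2 controls were 16.4-fold for Orm2, 6.91-fold for Saa2, 6.12-fold for Saa1, 5.34-fold for Apcs and 5.23-fold for Lcn2. In the Ctgf line the library labelled Ctgf knockout 2 was the highest for 22 of the 32 raised members (33.2% of all genes) and Ctgf control 2 the lowest for 21 (20.66%). In bulk liver, fewer cells of a type and less RNA per cell cannot be told apart.

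**Figure D2:**
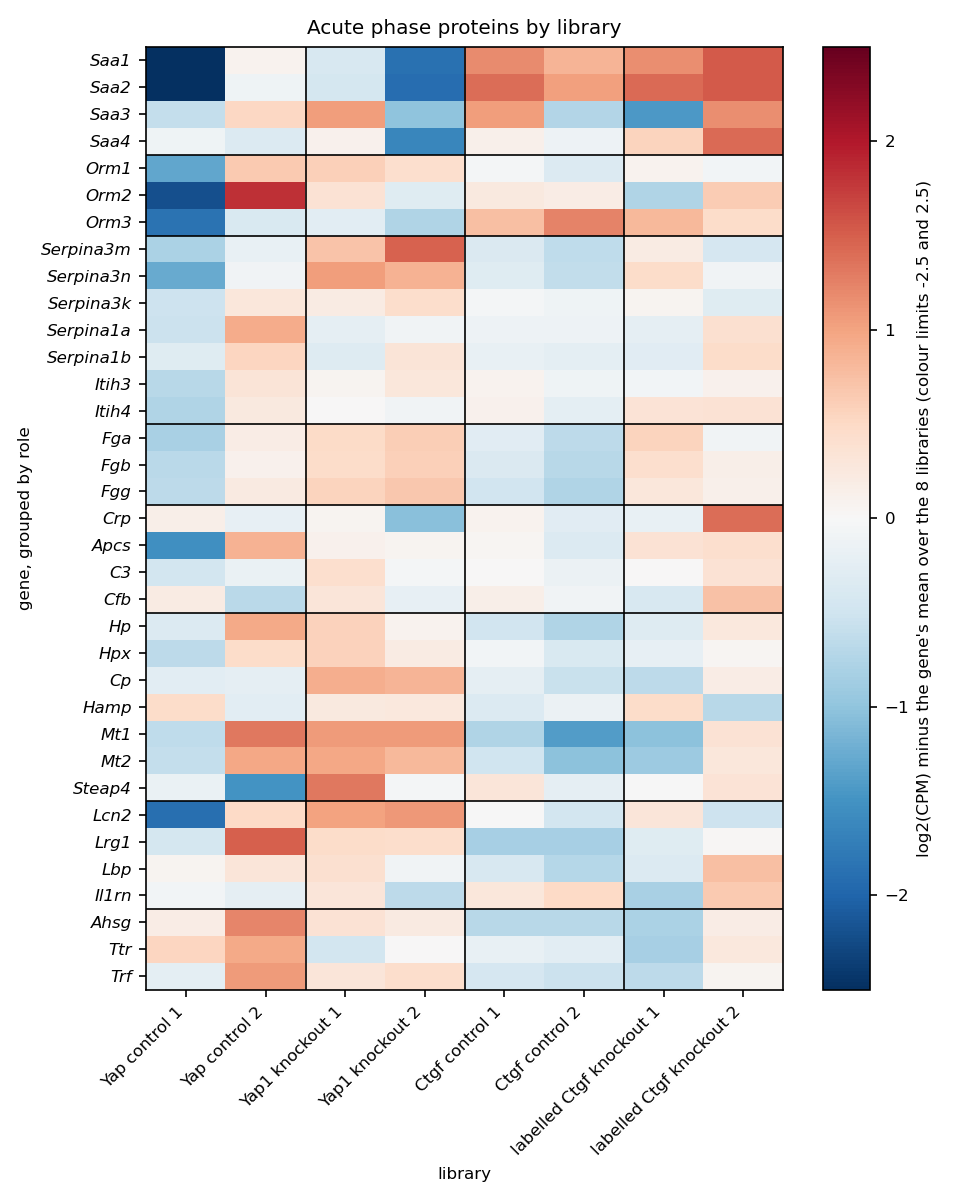
Each row is an acute phase gene, grouped by role, and each column a library. Colour is log2 CPM minus that gene's mean over the 8 libraries, with the scale ending at -2.5 and 2.5. Yap control 1 is the lowest of the Yap line for 23 of the 32 raised members, and Saa1 and Saa2 are lower in the 4 Yap line libraries than in the 4 Ctgf line libraries.

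Serum amyloid A genes encode apolipoproteins of high-density lipoprotein that are among the most inducible products of the acute phase liver, with Saa4 the constitutive form. Saa1 stood at 396 and 2423 CPM in the Yap control libraries, 1721 and 630.3 CPM in the Yap1 knockout libraries, 5179.6 and 4105 CPM in the Ctgf control libraries, and 5127 and 6571 CPM under the Ctgf knockout label. Saa2 stood at 304 and 2100.1 CPM in the Yap control libraries, 1683 and 609 CPM in the Yap1 knockout libraries, 5947 and 4631 CPM in the Ctgf control libraries, and 6039 and 6578 CPM under the Ctgf knockout label. Both genes were lower in all 4 Yap line libraries than in any Ctgf line library, and within the Yap line both were high in Yap control 2 and Yap1 knockout 1 and low in the other two. Across the 8 libraries Saa2 spanned 21.7-fold and Saa1 16.6-fold.

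Averaged over both groups of each line, Saa1 was 1292 ± 949 CPM (SD, n = 4) in the Yap line and 5246 ± 1013 (SD, n = 4) in the Ctgf line, and Saa2 was 1174 ± 855 and 5799 ± 827 (SD, n = 4). In edgeR's quasi-likelihood test of the line difference, Saa1 was 4.05-fold lower in the Yap line (log2 -2.02, SE 0.56, adjusted p = 0.0439) and Saa2 4.92-fold lower (log2 -2.30, SE 0.59, adjusted p = 0.0336). Together with Orm3 these were 3 members called, all lower, against 17.6% of all genes called in either direction and 7.49% called lower, so the members' share lay below that of all genes for calls in either direction and near it for lower calls. As a share of all reads the 4 Saa genes took 0.09373% (95% Wilson interval 0.09266 to 0.09482) in Yap control 1 and 1.264% (1.26 to 1.268) in the library labelled Ctgf knockout 2. Mouse line, floxed allele and AAV8 virus differ together between these 4 and 4 libraries and cannot be told apart. TruSeq and KAPA kits are both named in the labels' protocols without the kit of each library. Whether the kit also differed between the lines is therefore not known. Summed endothelial markers (397 to 641 CPM in the Yap line, 232 to 297 in the Ctgf line) and stellate cell markers (694 to 799 against 334 to 376) also differed between the lines. Line differences were above 0 for 4 of 6 endothelial markers, but not for Kdr (log2 -0.40) and Clec4g (-0.02). They were above 0 for 6 of 7 stellate markers, most for Acta2 (5.10) and Col1a1 (3.51), but not for Lrat (-0.13). Other marker lists also held line calls in edgeR, where 17.6% of all genes were called. Of 14 neutrophil markers 5 were called higher and 2 lower in the Yap line, and of 7 erythroid markers 4 higher and 1 lower. Of 6 cholangiocyte markers 2 were called higher and 1 lower, and of 11 Kupffer cell and macrophage markers Cd68 was called higher. Of 10 hepatocyte markers Cyp2e1 alone was called, lower in the Yap line (log2 -2.18, edgeR adjusted p = 0.0258). The part of all these markers in the Saa result was not tested.

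Saa3, made by macrophages and other cells as well as by hepatocytes, stood at 35.3 and 76.0 CPM in the Yap control libraries, 110.3 and 26.6 CPM in the Yap1 knockout libraries, 110.2 and 32.3 CPM in the Ctgf control libraries, and 19.8 and 119 CPM under the Ctgf knockout label, with no separation of lines or genotypes. Saa4 stood at 68.0 and 58.1 CPM in the Yap control libraries, 78.6 and 23.7 CPM in the Yap1 knockout libraries, 79.8 and 66.6 CPM in the Ctgf control libraries, and 108 and 196 CPM under the Ctgf knockout label. Its level in the library labelled Ctgf knockout 2 was the highest of the 8, and its line difference (log2 -0.89, adjusted p = 0.126) did not pass edgeR's test. Neither knockout gave a call in the family: the log2 difference of Yap1 knockout over control was -0.26 for Saa1, -0.07 for Saa2, 0.30 for Saa3 and -0.30 for Saa4, with adjusted p of 0.788 to 0.972 in edgeR. For Saa2 the SE of that difference was 0.79, larger than the difference.

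**Figure D3:**
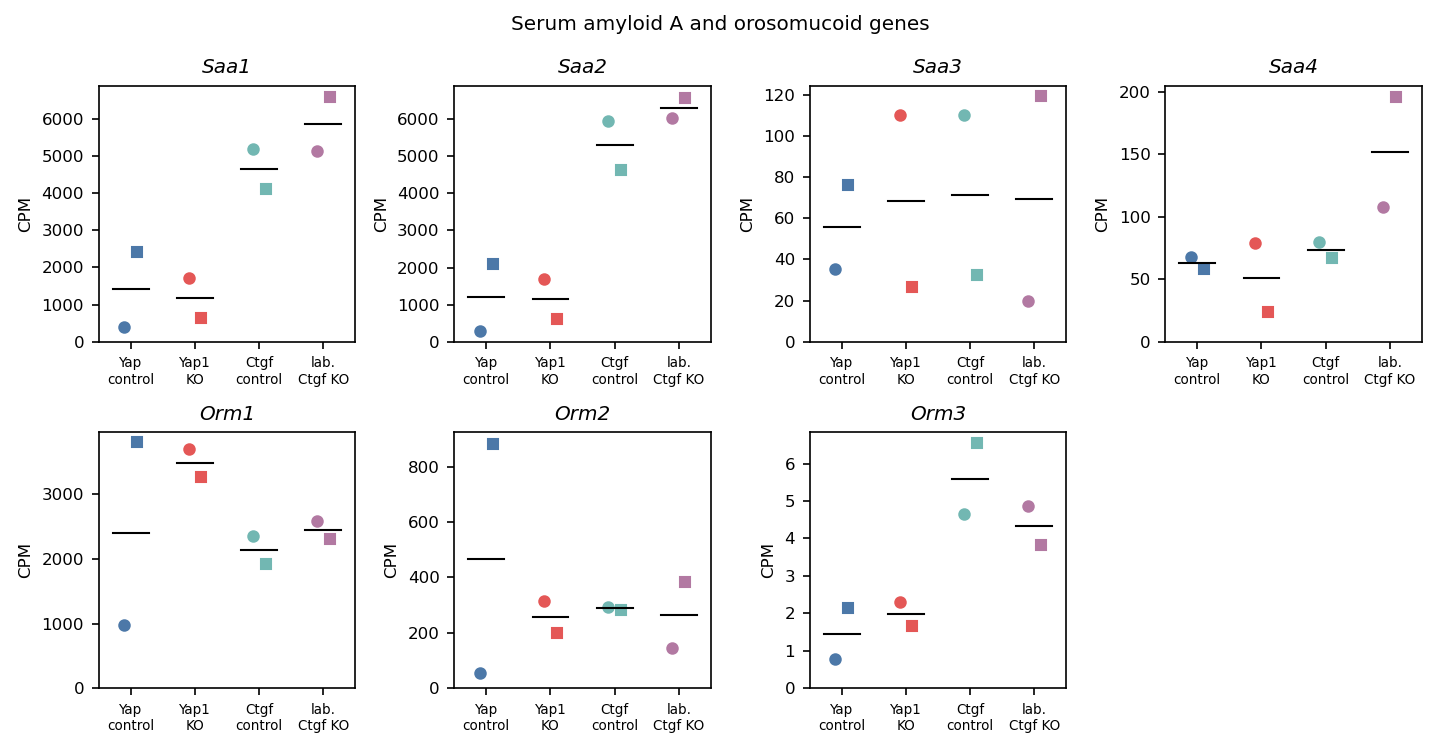
CPM of Saa1 to Saa4 and Orm1 to Orm3 by group, 1 panel per gene, with circles for replicate 1, squares for replicate 2 and a line at the group mean. Saa1, Saa2 and Orm3 are lower in every Yap line library than in any Ctgf line library, and Orm1 and Orm2 are not.

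Orosomucoids, also called alpha-1-acid glycoproteins, are abundant plasma glycoproteins that bind drugs and lipids. Orm3 stood at 0.774 and 2.14 CPM in the Yap control libraries, 2.30 and 1.66 CPM in the Yap1 knockout libraries, 4.65 and 6.54 CPM in the Ctgf control libraries, and 4.86 and 3.82 CPM under the Ctgf knockout label, from 28 to 230 reads per library. The 4 Yap line libraries were all below the 4 Ctgf line libraries. The line difference was 2.92-fold lower in the Yap line (log2 -1.54, SE 0.35, edgeR adjusted p = 0.0229), with means of 1.72 ± 0.687 CPM (SD, n = 4) and 4.97 ± 1.14 (SD, n = 4). Its neighbours did not share this order. Orm1 stood at 984 and 3815 CPM in the Yap control libraries, 3698 and 3269.7 CPM in the Yap1 knockout libraries, 2349 and 1928 CPM in the Ctgf control libraries, and 2592 and 2310.3 CPM under the Ctgf knockout label, low in Yap control 1 alone. Orm2 stood at 53.9 and 882 CPM in the Yap control libraries, 316 and 199 CPM in the Yap1 knockout libraries, 294 and 282 CPM in the Ctgf control libraries, and 146 and 385 CPM under the Ctgf knockout label, lowest in Yap control 1 and highest in Yap control 2, so that the controls lay on either side of both Yap1 knockouts. Its log2 difference of Yap1 knockout over control was -0.86 with an SE of 1.00 (edgeR adjusted p = 0.689). For Orm1 the same difference was 0.54 and the line difference 0.34, and for Orm2 the line difference was 0.33, none of which passed the test.

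The 3 line calls depended on the libraries used. Each was lost in edgeR when either Yap1 knockout library, either Ctgf control library or the library labelled Ctgf knockout 1 was left out, and those of Saa1 and Saa2 also without the library labelled Ctgf knockout 2 (adjusted p = 0.102 and 0.0780). Over 17 other settings, the adjusted p ranged from 0.000207 to 0.242 for Saa1, called in 9, from 3.12e-05 to 0.182 for Saa2, called in 10, and from 0.000389 to 0.114 for Orm3, called in 11, and all 3 log2 differences were negative in every setting. Leaving out Yap control 1 gave 12 called members (31.4% of all genes) and leaving out Yap control 2 gave 6 (30.4%), each with Saa1, Saa2 and Orm3 among them and lower. Without both Yap control 2 and the library labelled Ctgf knockout 2 there were 14 (47.5%). Comparing the 2 control groups alone, with the spread still taken from the fit of all 8 libraries, gave edgeR adjusted p of 0.242 for Saa1, 0.182 for Saa2 and 0.0835 for Orm3. No member was called there.

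Among the protease inhibitors, Serpina3m and Serpina3n, mouse relatives of human alpha-1-antichymotrypsin, had the largest differences between the Yap1 knockouts and their controls. Serpina3m stood at 545 and 839 CPM in the Yap control libraries against 1559 and 2632 CPM in the Yap1 knockout libraries. In the Ctgf line it stood at 733 and 607 CPM in the Ctgf control libraries against 1099.6 and 709.7 CPM under the Ctgf knockout label. Serpina3n stood at 1199 and 2720.1 CPM in the Yap control libraries against 5972 and 5220.1 CPM in the Yap1 knockout libraries, and in the other line at 2317 and 1869 CPM in the Ctgf control libraries against 3935 and 2706 CPM under the Ctgf knockout label. Both Yap1 knockout libraries were above both of their controls for either gene. The knockout over control difference was 3.03-fold for Serpina3m (log2 1.60, SE 0.38, adjusted p = 0.167) and 2.86-fold for Serpina3n (log2 1.51, SE 0.42, adjusted p = 0.215) in edgeR, so neither passed the test over all genes. DESeq2 called both higher, with adjusted p of 0.00138 and 0.00835, among 3.82% of all genes that it called in either direction.

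The other inhibitors overlapped between Yap1 knockouts and controls. Serpina3k stood at 7033 and 12259 CPM in the Yap control libraries against 11599 and 13794 CPM in the Yap1 knockout libraries and ranged from 8169 to 10672 CPM in the Ctgf line. Serpina1a, an alpha-1-antitrypsin gene, stood at 302 and 831 CPM in the Yap control libraries against 372 and 408 CPM in the Yap1 knockout libraries, with Yap control 2 above every other library. Serpina1b ranged from 1274 to 2327 CPM, Itih3 from 2319 to 4649 and Itih4, like Itih3 a heavy chain of the inter-alpha inhibitor family, from 4447 to 9588. Yap control 1 was the lowest of the Yap line for all of these but Serpina1b, where Yap1 knockout 1 was lowest. Their log2 differences of Yap1 knockout over control ran from -0.54 for Serpina1a to 0.40 for Serpina3k, and none passed the test in edgeR.

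The 3 fibrinogen chains, which assemble into 1 clotting protein, kept the same order of groups. Fga stood at 8688 and 17133 CPM in the Yap control libraries, 21005 and 23313 CPM in the Yap1 knockout libraries, 12399 and 9657 CPM in the Ctgf control libraries, and 22444 and 14250.0 CPM under the Ctgf knockout label. Fgb stood at 6848 and 11815 CPM in the Yap control libraries, 15072 and 16574 CPM in the Yap1 knockout libraries, 8493 and 6714 CPM in the Ctgf control libraries, and 14553 and 12000.5 CPM under the Ctgf knockout label. Fgg stood at 5778 and 10677 CPM in the Yap control libraries, 13392 and 14555 CPM in the Yap1 knockout libraries, 6498 and 5417 CPM in the Ctgf control libraries, and 11133 and 9868 CPM under the Ctgf knockout label. For each chain both knockout libraries of a line were above both of that line's controls. Together they took 2.489% (95% Wilson interval 2.483 to 2.494) and 3.578% (3.571 to 3.585) of reads in the Yap controls and 4.84% (4.832 to 4.847) and 5.212% (5.204 to 5.22) in the Yap1 knockouts. The Ctgf control share was 2.776% (2.77 to 2.782) and 2.297% (2.291 to 2.302), and under the Ctgf knockout label it was 4.764% (4.756 to 4.772) and 3.391% (3.385 to 3.398).

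In edgeR the log2 differences of Yap1 knockout over control were 0.78 for Fga, 0.76 for Fgb and 0.76 for Fgg (SE 0.35 for Fgg), with adjusted p of 0.426, 0.385 and 0.386. For the labelled Ctgf knockout over its control they were 0.73, 0.80 and 0.82, with unadjusted p of 0.0515 for Fgb and 0.0499 for Fgg and adjusted p of 1.0 for each chain. The difference between the 2 knockout effects was -0.05 to 0.04 on the log2 scale, with an SE of 0.50 for Fgg, so the data bound that difference only loosely. No fibrinogen difference passed the test over all genes.

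Pentraxins bind microbial surfaces and dying cells. Crp stood at 322 and 253 CPM in the Yap control libraries, 306 and 140.2 CPM in the Yap1 knockout libraries, 308 and 239.6 CPM in the Ctgf control libraries, and 257 and 769 CPM under the Ctgf knockout label, with the library labelled Ctgf knockout 2 far above the rest. Apcs, the serum amyloid P component and the main acute phase pentraxin of mice, stood at 337 and 1797 CPM in the Yap control libraries, 1058 and 1019 CPM in the Yap1 knockout libraries, 1009 and 772 CPM in the Ctgf control libraries, and 1263 and 1306 CPM under the Ctgf knockout label, low in Yap control 1 alone. The log2 differences of Yap1 knockout over control were -0.36 (SE 0.53) for Crp and -0.04 for Apcs. C3, the central complement protein, stood at 11654 and 14229 CPM in the Yap control libraries, 21375 and 15467 CPM in the Yap1 knockout libraries, 16061 and 14333 CPM in the Ctgf control libraries, and 16103 and 20358 CPM under the Ctgf knockout label, above both controls in both knockout libraries of each line, and Cfb ranged from 3.29 to 8.65 CPM. None of the 4 passed edgeR's test in any of the 4 comparisons.

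Of the carriers of heme and metals, Cp, the copper-bearing ferroxidase ceruloplasmin, was higher in both Yap1 knockout libraries than in the other 6. Cp stood at 3245 and 3317 CPM in the Yap control libraries, 7285 and 6979.6 CPM in the Yap1 knockout libraries, 3346 and 2629 CPM in the Ctgf control libraries, and 2474 and 4427 CPM under the Ctgf knockout label. The Yap controls differed from each other by little and lay below both knockouts. The knockout over control log2 difference was 1.12 (SE 0.33, adjusted p = 0.238) in edgeR and DESeq2 called Cp higher (adjusted p = 0.0188). Steap4, a metalloreductase, stood at 270.0 and 107 CPM in the Yap control libraries against 748 and 291 CPM in the Yap1 knockout libraries (log2 1.46, SE 0.54, edgeR adjusted p = 0.318), and between 258 and 382 CPM in the Ctgf line. Hp stood at 8534 and 20621 CPM in the Yap control libraries, 16123 and 11479 CPM in the Yap1 knockout libraries, 7685 and 6401 CPM in the Ctgf control libraries, and 8635 and 12964 CPM under the Ctgf knockout label, and Hpx ranged from 9663 to 22828 CPM. For Hp and Hpx the lowest Yap line library was Yap control 1. Hamp, which encodes the iron hormone hepcidin, ranged from 272 to 608 CPM with no order by group.

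The metallothioneins Mt1 and Mt2, small zinc-binding proteins, had like profiles across the libraries. Mt1 stood at 653 and 2519 CPM in the Yap control libraries, 2124 and 2132 CPM in the Yap1 knockout libraries, 605 and 387 CPM in the Ctgf control libraries, and 497 and 1296 CPM under the Ctgf knockout label. Mt2 stood at 461 and 1364 CPM in the Yap control libraries, 1358 and 1221 CPM in the Yap1 knockout libraries, 492 and 342 CPM in the Ctgf control libraries, and 374 and 854 CPM under the Ctgf knockout label. In the Yap line both were low in Yap control 1 and close together in the other 3 libraries, and in the Ctgf line both were highest in the library labelled Ctgf knockout 2. The line difference was log2 1.46 for Mt1 and 1.10 for Mt2 (edgeR adjusted p = 0.0887 for Mt2), and neither passed the threshold. DESeq2 called both higher, among 10 members it called between the lines (24.8% of all genes).

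Lcn2, or lipocalin 2, which sequesters bacterial siderophores and is made by hepatocytes and neutrophils, stood at 579 and 3026 CPM in the Yap control libraries, 4269 and 4545 CPM in the Yap1 knockout libraries, 2117 and 1549 CPM in the Ctgf control libraries, and 2629 and 1495 CPM under the Ctgf knockout label. Yap control 1 was the lowest library and both Yap1 knockouts were above every other. The knockout over control log2 difference was 1.29 with an SE of 0.67 (edgeR adjusted p = 0.416). Neutrophil markers were also higher in these libraries: the 14 summed to 165 and 275 CPM in the Yap controls and 1111 and 559 in the Yap1 knockouts, 12 of 14 had log2 differences above 0, and Mpo was at 0 in Yap control 1. The 7 erythroid markers summed to 123 and 229 CPM in the Yap controls and 467 and 403 in the Yap1 knockouts. Their part in the levels of Lcn2, Serpina3n and the other members was not tested. In the Ctgf line the neutrophil sum was 200 and 232 CPM in the controls and 82.5 and 161 in the libraries labelled knockout, and Lcn2 was between 1495 and 2629 CPM.

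Lrg1, a leucine-rich glycoprotein, stood at 1321 and 5016 CPM in the Yap control libraries, 2462 and 2407 CPM in the Yap1 knockout libraries, 1004 and 999.9 CPM in the Ctgf control libraries, and 1440.1 and 1814 CPM under the Ctgf knockout label. Yap control 2 was the highest library, both Yap1 knockouts were above every Ctgf line library, and Yap control 1 lay within the range of the Ctgf line. Lbp, the lipopolysaccharide-binding protein, stood at 171 and 202 CPM in the Yap control libraries, 216 and 155 CPM in the Yap1 knockout libraries, 125 and 99.9 CPM in the Ctgf control libraries, and 129.7 and 277 CPM under the Ctgf knockout label, and its labelled Ctgf knockout over control log2 difference was 0.86 (SE 0.36, unadjusted p = 0.0467 and adjusted p = 1.0 in edgeR). Most of the Lbp difference lay in the library labelled Ctgf knockout 2. Il1rn ranged from 50.8 to 139 CPM with no order by group.

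None of the 3 negative acute phase members was called in a knockout. Ttr, or transthyretin, a carrier of thyroid hormone and retinol-binding protein, was chosen for description after its values were seen. It stood at 2820.0 and 3734 CPM in the Yap control libraries, 1403 and 1946 CPM in the Yap1 knockout libraries, 1699 and 1608 CPM in the Ctgf control libraries, and 1096 and 2333 CPM under the Ctgf knockout label, and both Yap1 knockouts were below both Yap controls (log2 -0.97, SE 0.39, edgeR adjusted p = 0.343). Ahsg, or fetuin-A, stood at 10019 and 20659 CPM in the Yap control libraries, 11388 and 10329 CPM in the Yap1 knockout libraries, 5441 and 5452 CPM in the Ctgf control libraries, and 5127 and 9982 CPM under the Ctgf knockout label. Yap control 2 was the highest and the other 3 Yap line libraries were near each other (log2 -0.50, SE 0.44, edgeR adjusted p = 0.599). Trf, or transferrin, stood at 1437 and 3555 CPM in the Yap control libraries, 2086 and 2319.9 CPM in the Yap1 knockout libraries, 1269.9 and 1177 CPM in the Ctgf control libraries, and 1076 and 1774 CPM under the Ctgf knockout label, and its log2 difference of Yap1 knockout over control was -0.18. All 3 had log2 differences below 0 in the Yap1 knockouts and above 0 in the labelled Ctgf knockouts (0.05 to 0.47).

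Over the whole set, edgeR called 0 of 35 members between Yap1 knockouts and controls, where 4 of 13999 genes were called (0.0286%). The deleted gene Yap1 was itself not among those called (log2 -1.53, edgeR adjusted p = 0.0557), so a lack of calls says little about the members. At an unadjusted p under 0.05 there were 4 higher (Serpina3m, Serpina3n, Cp and Steap4) and 1 lower (Ttr), against 13.8% of all genes in either direction, 6.64% higher and 7.14% lower. DESeq2 called 3 higher (3.82% of all genes in either direction, 2.01% higher) and limma-voom called 0 (0.0357%). For 9 members both knockouts were above both controls, which were Serpina3m, Serpina3n, Fga, Fgb, Fgg, C3, Cp, Steap4 and Lcn2, and for Ttr both were below. That is 28.57% of the members, against 44.4% of all genes tested whose libraries did not overlap (23.6% higher and 20.8% lower), so members separated the groups no more often than genes in general. The median member log2 difference was 0.23, with 21 of 35 above 0, and that of all genes was 0.00.

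**Figure D4:**
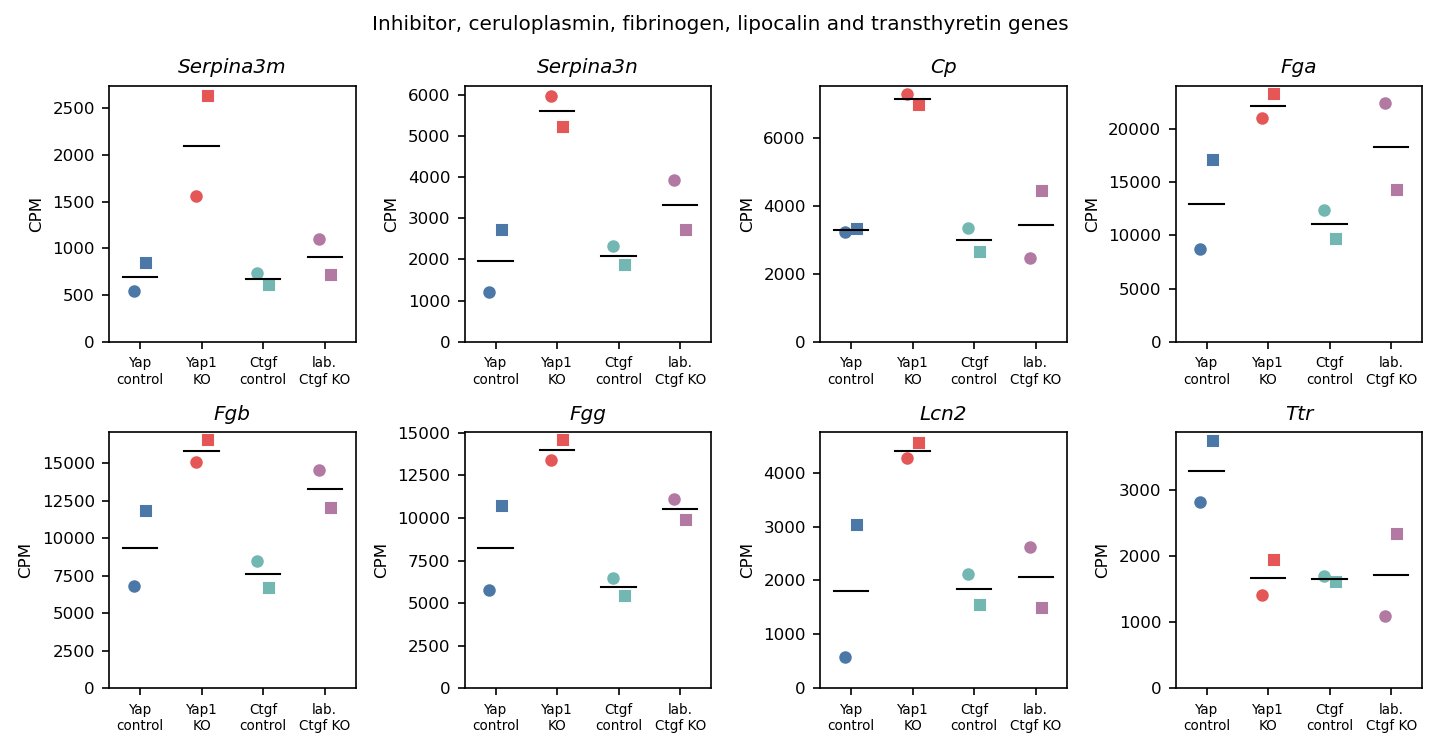
CPM of Serpina3m, Serpina3n, Cp, Fga, Fgb, Fgg, Lcn2 and Ttr by group, 1 panel per gene, with circles for replicate 1, squares for replicate 2 and a line at the group mean. In the Yap line both knockout libraries lie above both controls for the first 7 genes and below them for Ttr, and none passed edgeR's test over all genes.

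The 2 Yap controls gave different pictures of the same knockouts. The mean of the Yap1 knockouts was above Yap control 1 for 29 of 35 members, with a median of 0.88 on the log2(CPM + 1) scale, and above Yap control 2 for 13 of 35, with a median of -0.13. Of all genes, 51.5% were above Yap control 1 and 52.6% above Yap control 2. The knockout mean was above both controls for 10 members (Serpina3m, Serpina3n, Serpina3k, Fga, Fgb, Fgg, C3, Cp, Steap4 and Lcn2) and below both for Saa4, Crp and Ttr. For 19 members it was above Yap control 1 and below Yap control 2, among them Saa1, Saa2, Orm1, Orm2, Apcs, Hp, Hpx, Mt1, Mt2 and Lrg1. For Cfb, Hamp and Il1rn it was the other way round.

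**Figure D5:**
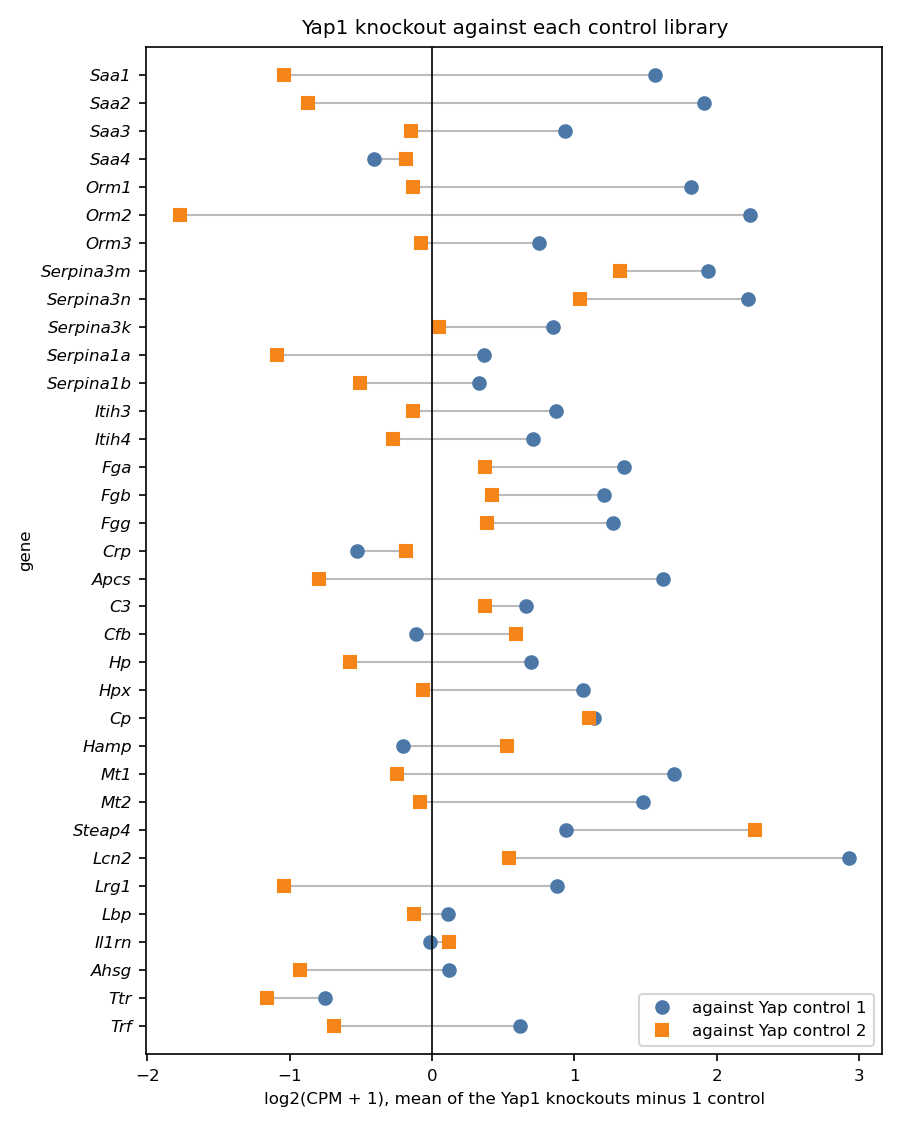
For each member, the mean CPM of the 2 Yap1 knockouts was put on the log2(CPM + 1) scale, and the log2(CPM + 1) of 1 Yap control was subtracted. Blue circles are for Yap control 1 and orange squares for Yap control 2, and 0 means no difference. The blue circles lie above 0 for 29 of 35 members and the orange squares for 13 of 35.

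The members called differed with the libraries left out. Without Yap control 1, edgeR called 4 members, Steap4 higher (log2 2.25, adjusted p = 0.0390) and Serpina1a (log2 -1.12), Apcs (-0.82) and Lrg1 (-1.07) lower, against 25.8% of all genes (12.4% higher and 13.4% lower), and the median member difference was -0.16. Without Yap control 2 alone, no member was called (0.28% of all genes were) and the median was 0.95. Yap control 2 was the library with pancreatic transcripts, and a setting chosen after seeing the data left it out together with the library labelled Ctgf knockout 2, in which Ctgf was not lower. In that setting edgeR called 13 members, all higher, against 6.58% of all genes in either direction and 3.72% higher. These were Orm1 (log2 1.82), Orm2 (2.26), Serpina3m (1.94), Serpina3n (2.22), Fga (1.35), Fgb (1.21), Fgg (1.27), Apcs (1.63), Cp (1.14), Mt1 (1.70), Mt2 (1.49), Lcn2 (2.93) and Lrg1 (0.88), with adjusted p from 0.00789 to 0.0455. Apcs and Lrg1 were thus called lower without Yap control 1 and higher in the setting that left out both Yap control 2 and the library labelled Ctgf knockout 2, but not without Yap control 2 alone. In each of these settings the Yap control group had 1 library, assumed to vary like the other groups. With all 8 libraries and the replicate number as a block, edgeR called 19 genes and 0 members.

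Between the labelled Ctgf knockouts and their controls edgeR called 0 of 35 members and 0% of all genes. At an unadjusted p under 0.05 there were 2 higher, Lbp and Fgg, against 1.98% of all genes in either direction and 0.657% higher, and DESeq2 (0.0286% of all genes) and limma-voom (0.00714%) called none. For 12 members both labelled knockouts were above both controls (Saa2, Saa4, Serpina3n, Itih4, Fga, Fgb, Fgg, Apcs, C3, Hp, Lrg1 and Lbp) and for none below. That is 34.29% of members, against 32.2% of all genes in either direction and 15.5% higher. The median member log2 difference was 0.26, with 30 of 35 above 0, and that of all genes was 0.01. Without the library labelled Ctgf knockout 2 the members' median was 0.08 and the Lbp difference 0.21, and the median was 0.52 without the library labelled Ctgf knockout 1 and 0.45 without Ctgf control 1. The 11 Kupffer cell and macrophage markers summed to 984 and 1358 CPM in the Ctgf controls and 471 and 976 CPM under the knockout label, and their part in these differences was not tested.

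The difference between the Yap1 and the labelled Ctgf knockout effects was tested directly. EdgeR called 0 of 35 members and 0% of all genes, none of the members had an unadjusted p under 0.05 (8.87% of all genes did), and DESeq2 (1.06% of all genes) and limma-voom (0%) called none. The largest differences by p were Serpina3m (log2 1.17, SE 0.52, adjusted p = 0.570), Cp (0.91, SE 0.47, adjusted p = 0.591) and Saa4 (-1.35, SE 0.73, adjusted p = 0.597). The median over the members was -0.06. A member that separated in 1 knockout and not in the other was therefore not shown to respond differently. Without Yap control 2 and the library labelled Ctgf knockout 2, edgeR called Orm2 and Lcn2 in this comparison (1% of all genes), and without Yap control 1 it called Serpina1a, Apcs and Lrg1 (14.5% of all genes).

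Between the lines, 7 members were higher and 4 lower in the Yap line at an unadjusted p under 0.05, against 34.6% of all genes in either direction, 18.7% higher and 16% lower. The median member log2 difference was 0.27, with 23 of 35 above 0, and became -0.031 without Yap control 2. Ahsg, Mt1 and Lrg1, chosen for description after their values were seen, had the smallest p among members higher in the Yap line: log2 1.01 for Ahsg (SE 0.31, adjusted p = 0.0623), 1.46 for Mt1 (SE 0.46, adjusted p = 0.0653) and 1.12 for Lrg1 (SE 0.38, adjusted p = 0.0770) in edgeR. Ahsg was higher in all 4 Yap line libraries than in any Ctgf line library, by a narrow margin, with 10019 CPM in Yap control 1 against 9982 in the library labelled Ctgf knockout 2. Ahsg, higher, and Saa1, Saa2 and Orm3, lower, were the members whose lines did not overlap, or 11.43% of members against 22.8% of all genes (11.5% higher and 11.2% lower). DESeq2 called Cp, Mt1, Mt2, Lrg1, Ahsg and Trf higher (13.8% of all genes) and Saa1, Saa2, Saa4 and Orm3 lower (11.1%), and limma-voom called the same 3 members as edgeR (16.9% of all genes).

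Genes of the pathways that drive the acute phase were followed as 4 lists. Limma-voom called none of their genes in either knockout, and DESeq2 called none in the labelled Ctgf knockouts. Of 19 cytokines and receptors that induce it, edgeR called none in either knockout. At an unadjusted p under 0.05, 3 were higher and 1 lower in the Yap1 knockouts, with a list median of -0.05 on the log2 scale, and 3 were lower in the labelled Ctgf knockouts. Of all genes, 13.8% passed that p in either direction in the Yap1 knockouts (6.64% higher and 7.14% lower) and 1.98% in the labelled Ctgf knockouts. Il1r1, the signalling receptor of interleukin-1, stood at 199 and 116 CPM in the Yap control libraries against 375 and 354 CPM in the Yap1 knockout libraries (log2 1.21, edgeR adjusted p = 0.173), both knockouts above both controls, and DESeq2 called it higher. Ctf1, cardiotrophin 1, stood at 3.60 and 5.64 CPM in the Yap control libraries against 1.94 and 1.94 CPM in the Yap1 knockout libraries (log2 -1.25, edgeR adjusted p = 0.223). In the Ctgf line, Il6 stood at 1.40 and 0.825 CPM in the Ctgf control libraries against 0.177 and 0.254 CPM under the Ctgf knockout label and Tnf at 6.38 and 5.80 CPM in the Ctgf control libraries against 1.14 and 1.81 CPM under the Ctgf knockout label, with log2 differences of -2.34 and -2.04 and adjusted p of 1.0 in edgeR, and in both genes the labelled knockouts lay below the controls. Between the lines edgeR called Osm, the interleukin-6 relative oncostatin M, higher in the Yap line (log2 2.36, adjusted p = 0.0137) and the receptor genes Il6ra (log2 -0.60, adjusted p = 0.0190) and Lifr (log2 -0.87, adjusted p = 0.0473) lower, which is 3 of 19 where 17.6% of all genes were called.

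Of 23 transcription factors and kinases of these pathways, none was called in either knockout by edgeR. At an unadjusted p under 0.05, 3 were higher and 2 lower in the Yap1 knockouts (median 0.00), and 1 was lower in the labelled Ctgf knockouts, beside the same 13.8% and 1.98% of all genes in either direction. Cebpa, a C/EBP factor of mature hepatocytes, stood at 169.7 and 189 CPM in the Yap control libraries, 108 and 75.5 CPM in the Yap1 knockout libraries, 127 and 139 CPM in the Ctgf control libraries, and 165 and 189 CPM under the Ctgf knockout label. Both Yap1 knockouts were below all 6 other libraries (log2 -0.96, edgeR adjusted p = 0.173), and DESeq2 called it lower. Klf6 stood at 161 and 276 CPM in the Yap control libraries against 378 and 394 CPM in the Yap1 knockout libraries (log2 0.82, edgeR adjusted p = 0.273), and Nfkbiz, an inhibitor-like regulator of NF-kappaB, stood at 28.9 and 37.9 CPM in the Ctgf control libraries against 15.3 and 25.8 CPM under the Ctgf knockout label (log2 -0.70, unadjusted p = 0.0442 in edgeR). Relb (log2 -1.05, adjusted p = 0.0142), Nfkb2 (log2 -0.71, adjusted p = 0.0323) and the kinase Tyk2 (log2 -0.54, adjusted p = 0.0441) were called lower in the Yap line by edgeR, which is 3 of 23 where 17.6% of all genes were called in either direction and 7.49% lower.

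Of 18 feedback and early target genes of interleukin-6, interleukin-1 and TNF, 16 had log2 differences above 0 in the Yap1 knockouts (median 0.59), 5 of them at an unadjusted p under 0.05, and none was called by edgeR. Of all genes 6.64% were higher at that p, and the median was -0.0046. In the labelled Ctgf knockouts 13 were below 0 (median -0.08), 2 of them at an unadjusted p under 0.05, against 1.98% of all genes in either direction. Il1r2, the decoy receptor of interleukin-1, stood at 13.6 and 16.4 CPM in the Yap control libraries, 81.2 and 53.3 CPM in the Yap1 knockout libraries, 3.60 and 3.81 CPM in the Ctgf control libraries, and 2.09 and 7.12 CPM under the Ctgf knockout label. Both Yap1 knockouts were above every other library (log2 2.17, edgeR adjusted p = 0.157), the line difference was called (log2 2.94, edgeR adjusted p = 0.00328), and the gene is also in the neutrophil list. Neutrophil markers were higher in the same Yap1 knockout libraries, and their part in this list was not tested. Il4ra stood at 91.5 and 85.7 CPM in the Yap control libraries against 146 and 132 CPM in the Yap1 knockout libraries (log2 0.65, edgeR adjusted p = 0.215), and DESeq2 called Il1r2 and Il4ra higher in the Yap1 knockouts, among 2.01% of all genes that it called higher there. Tnfaip3, which encodes the NF-kappaB feedback inhibitor A20, stood at 33.9 and 36.2 CPM in the Ctgf control libraries against 17.1 and 18.4 CPM under the Ctgf knockout label and the kinase gene Pim1 at 56.5 and 54.6 CPM in the Ctgf control libraries against 44.4 and 30.8 CPM under the Ctgf knockout label, with log2 differences of -0.98 and -0.56 in the labelled Ctgf knockouts and adjusted p of 1.0 in edgeR.

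Other proteins that the liver secretes were set beside the members. Of 20 such genes outside the set, 16 had log2 differences below 0 in the Yap1 knockouts (median -0.24) and 18 were above 0 in the labelled Ctgf knockouts (median 0.22), and edgeR called none in either. Igfals, the acid-labile subunit of the insulin-like growth factor complex, stood at 24.7 and 44.3 CPM in the Yap control libraries against 12.1 and 13.8 CPM in the Yap1 knockout libraries (log2 -1.41, edgeR adjusted p = 0.140) and Serpinf1 at 131 and 207 CPM in the Yap control libraries against 76.5 and 94.4 CPM in the Yap1 knockout libraries (log2 -0.98, edgeR adjusted p = 0.278). Igfals was called lower by DESeq2, and Serpinf1 was called lower in the Yap line by edgeR (log2 -0.82, adjusted p = 0.0472). In the Ctgf line Gc, the vitamin D carrier, had a log2 difference of 0.39 and Fetub, a relative of Ahsg, one of 0.51, both with the library labelled Ctgf knockout 2 highest. The members' median of 0.26 in that comparison thus lay near the 0.22 of other secreted proteins. In the Yap1 knockouts the members' 0.23 stood beside -0.24, a contrast of list medians that was not tested. The secreted list was not restricted to proteins that stay level in the acute phase (it holds Alb, Apoa1 and Rbp4), so it is not a neutral background. The 3 negative members had a median of -0.50 in the Yap1 knockouts.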

How the data were processed

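Liver RNA of 8 libraries (4 groups of 2) was measured by mRNA sequencing, with TruSeq and KAPA kits both named in the labels' protocols and the kit of each library not stated. The authors deposited whole-number read counts per gene symbol, made with STAR 2.6.0a and HTSeq 0.6.1 after bcl2fastq 2.20.0.422, on mm10 (GRCm38), per the submitters' processing notes. The annotation and strand setting were not stated in the sources used here. The 35 members, the pathway lists and the marker lists were chosen with earlier results of these data known.

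Counts were analysed with edgeR 4.0.16 in R 4.3.3: filterByExpr left 13999 of 22155 genes, TMM scaled the libraries, and the quasi-likelihood test was fitted to all 8 libraries as 4 groups (4 residual degrees of freedom, a common biological coefficient of variation of 27.2%) with Benjamini-Hochberg adjustment over all genes and a threshold of 0.05. The comparisons were each knockout against its control, the difference between the knockout effects, and the 2 lines. The SE beside an edgeR log2 difference is its absolute value divided by the square root of the F statistic. It restates the test and is not a separate estimate of precision. Full statistics are given for members past the threshold, the 3 with the smallest p in each comparison and the widest spread in each role. Members that were named otherwise are said to be so. From each pathway list, genes past the threshold and the 2 with the smallest p in each knockout comparison are named.

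Alternatives were RLE and upper quartile scaling, DESeq2 1.42.0, limma-voom (limma 3.58.1), no filter, at least 1 CPM in 2 libraries, robust spread, a replicate block, the 4 libraries of a comparison alone, the control groups alone, and each library left out. The setting of the control groups alone compared those groups within the fit of all 8 libraries. With totals of 26904021 to 33488609 counts, 3 counts equal 0.083 to 0.123 CPM. Gene positions and exon lengths came from GENCODE M21 and promoters from RefSeq (GRCm38.p6).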

Additional observations from a re-analysis of the deposited data

How the results depend on the processing

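With 2 libraries a group, single libraries decided most counts, and the cause was not tested where a setting moved a value. EdgeR called 4 genes for the Yap1 knockout, against 514 with DESeq2, 37 without the filter, 19 with the replicate block, 0 in the 4 libraries alone and 938 without both Yap control 2 and the library labelled Ctgf knockout 2. Its 0 called members became 3 with DESeq2 and 13 without both libraries, and the members' median of 0.23 became 0.94 without both. The log2 difference of Saa2 turned from -0.07 to 0.29 with limma-voom, 0.34 with the block and 1.92 without both. That of Orm2 turned from -0.86 to 0.14, 0.20 and 2.26, and that of Ahsg from -0.50 to 0.12 without both. The Ctgf knockout had 0 called genes, against 4 with DESeq2 and 1 with limma-voom. The difference between knockouts had 0, against 142 with DESeq2, 2 without the filter and 143 without both, with 2 members, and its median of -0.06 became 0.045 with limma-voom, 0.078 with the block and 0.80 without both. Between the lines 2468 genes were called, 333 in the control groups alone and 6768 without both, and 3 members became 10 with DESeq2, 0 in the control groups alone and 14 without both, where the median of 0.27 became 0.07. The Saa1 line call was lost with upper quartile scaling (adjusted p = 0.0528 in edgeR).

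Leaving out 1 library gave 0 to 3728 genes and 0 to 4 members for the Yap1 knockout, a member median of -0.16 to 0.95, and log2 differences of -0.97 to 1.92 for Saa2, -1.80 to 2.26 for Orm2, -1.03 to 0.10 for Crp and -0.96 to 0.12 for Ahsg. For the Ctgf knockout it gave 0 genes and a median of 0.08 to 0.52. For the difference it gave 0 to 2092 genes, 0 to 3 members and a median of -0.46 to 0.62, and for the lines 448 to 4541 genes, 0 to 12 members and a median of -0.031 to 0.40. The title of Yap control 2 calls it the control for a knockout numbered as in the column name of Yap1 knockout 2, that of Yap control 1 gives the number of its own column, and the Ctgf titles name no partner. No label states a shared litter, batch or day, and same-numbered libraries deviated from their group means with a correlation of 0.186 in the Yap line and 0.113 in the Ctgf line. The replicate block changed no call of a member in the knockout comparisons. Between the lines, where the labels tie no replicate number of one line to the other, no blocked fit was made.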
